A study of Triticum aestivum with 8 samples.

Results

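The regions described here are the ATAC-seq peaks on wheat chromosomes 7A, 7B and 7D, the homoeologous group 7. They were taken by chromosome name from 4 deposited peak lists and number 73658 of 496486 peaks, or 14.8%. Chromosome 7A held 24748 of them, 7B 22592 and 7D 26318. The leaf list gave 17629, the root list 18338, the shoot apex list 19546 and the axillary bud list 18145.

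All plants were Triticum aestivum of the cultivar AiKang58, for which the labels give the same growth conditions, 22 °C in a light phase of 16 h and 19 °C in a dark phase of 8 h. Leaves, roots and shoot apices were taken from seedlings 2 weeks old. Axillary buds, 1 to 2 cm long, were taken at 6 weeks, after vernalization for 30 days in the cold (4 °C). Effects of tissue, age and cold cannot be told apart wherever buds differ from the other tissues. Each tissue had 2 libraries but 1 peak list, so no difference between tissues has a replicate error, and intervals below are 95% intervals of counting error over peaks. Because peaks were assigned to no gene, the tissue labels could not be checked against marker genes.

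Bread wheat is an allohexaploid: it carries 3 subgenomes, A, B and D, from 3 related grasses, and homoeologues are the corresponding chromosomes of these subgenomes, which largely share their genes in the same order. ATAC-seq uses a transposase that cuts DNA where nucleosomes and other proteins leave it accessible, and accessible stretches include promoters and other regulatory DNA. Genes of wheat lie mostly towards the chromosome ends, while the interior is dominated by transposable elements. Group 7 is known for VRN3, a homologue of the flowering signal FT, for homoeologous waxy genes of amylose synthesis, and for a rearrangement in which the end of the short arm of 7B moved to the long arm of 4A. By convention wheat chromosomes are numbered from the end of the short arm.

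Chromosome 7D was the shortest of the homoeologues and the most densely covered by peaks in every tissue. Taken to the end of the last peak, 7A measured 736.7 Mb, 7B 750.6 Mb and 7D 638.7 Mb, together 15.1% of the 21 chromosomes. In leaves 7D had 6303 peaks (9.87 per Mb), 7A 5900 (8.01 per Mb) and 7B 5426 (7.23 per Mb). In roots the numbers were 6678 on 7D (10.5 per Mb), 6126 on 7A (8.32 per Mb) and 5534 on 7B (7.37 per Mb). In shoot apices (apices below) they were 6966 (10.9 per Mb), 6612 (8.98 per Mb) and 5968 (7.95 per Mb). In axillary buds they were 6371 (9.98 per Mb), 6110 (8.29 per Mb) and 5664 (7.55 per Mb). The order 7D, 7A, 7B was thus the same in the 4 lists.

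The density of 7D over 7A was 1.23 in leaves (1.19 to 1.28), 1.26 in roots (1.21 to 1.30), 1.22 in apices (1.17 to 1.26) and 1.20 in buds (1.16 to 1.25). The bud ratio was the only one of these below all the other 6 homoeologous groups, whose D over A ratios ran from 1.22 to 1.403 in buds, and its interval reached into that range. The density of 7D over 7B was higher, at 1.37 in leaves, 1.42 in roots, 1.37 in apices and 1.32 in buds. The ratio of 7A to 7B lay between 1.10 in buds and 1.13 in roots and apices. Per protein-coding gene the homoeologues came much closer: 7D over 7A was 0.998 to 1.04 and 7D over 7B was 1.01 to 1.09. The gene numbers behind these ratios, 5119 on 7A, 4818 on 7B and 5348 on 7D, came from a RefSeq annotation of another assembly (IWGSC CS RefSeq v2.1).

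Group 7 took a larger share of the root list and a smaller share of the leaf list than of the other lists. It held 15.4% of root peaks, against a mean of 14.7% in the other 3 lists, and 14.3% of leaf peaks, against 15.01%. Its shares of the shoot apex peaks (14.8%) and the bud peaks (14.9%) lay between these. Set against the mean of the other tissues, the leaf share was the lowest of the 7 chromosomes of its subgenome on 7A, 7B and 7D alike. The root share was the highest of 7 on 7A and on 7D, and the second highest on 7B.

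Peaks of group 7 crowded towards the chromosome ends, most in buds and least in leaves. The outer 20% of the length at either end, or 40% of the length in all, held 59.1% of leaf, 63.4% of shoot apex, 65.1% of root and 70.9% of bud peaks of group 7. The same zones of the other 18 chromosomes held 58.1%, 61.7%, 63.0% and 67.2%, so the order of tissues was the same and each share was lower. Bud and root peaks were most distal on 7D, with 73.4% of bud and 68.4% of root peaks in these zones, the highest of the 7 D chromosomes.

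In bins of 5% of the length, the first bin of 7D was the densest stretch of the group in every tissue, with 26.0 leaf, 32.7 root, 32.04 shoot apex and 39.2 bud peaks per Mb. The first bin of 7A held 17.4, 22.7, 21.9 and 27.9 peaks per Mb in the same order of tissues. The first bin of 7B held only 11.0, 13.3, 15.2 and 18.4. At the other end the last bin of 7D held 20.9, 27.96, 26.5 and 33.6 peaks per Mb, that of 7A 16.0, 20.1, 19.9 and 26.3, and that of 7B 11.8, 18.1, 14.1 and 19.6. The bud list was thus the densest and the leaf list the sparsest in all 6 end bins.

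The sparsest bins lay near the middle. On 7A it was the bin at 55 to 60% of the length in all 4 tissues, with 2.17 peaks per Mb in buds and 3.75 in leaves. On 7D it lay at 45 to 50% in roots (2.13 per Mb) and buds (2.60 per Mb), and at 50 to 55% in leaves (3.13 per Mb) and apices (2.66 per Mb). On 7B it lay at 45 to 50%, except in buds, where the bin at 55 to 60% was lowest with 2.32 per Mb. The densest bin exceeded the sparsest 15.4-fold on 7D in roots but 3.71-fold on 7B in leaves.

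**Figure D1:**
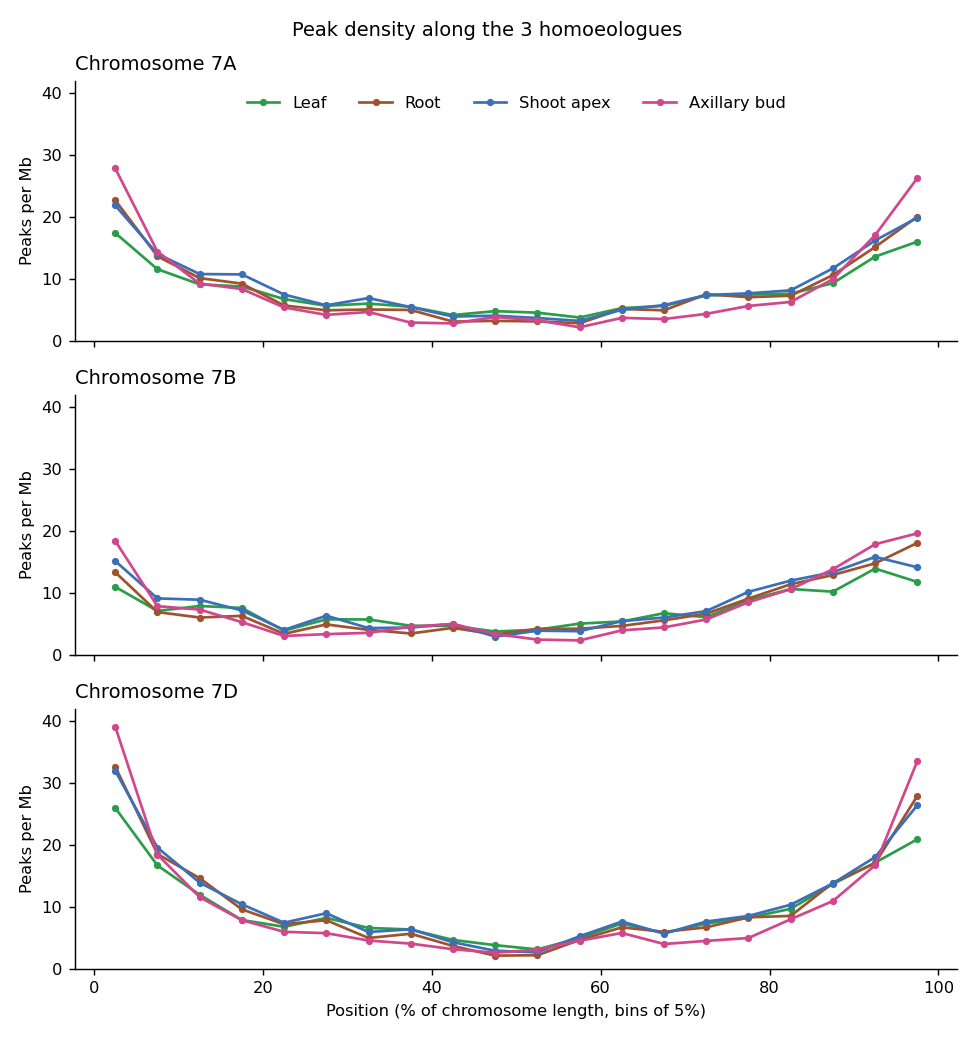
Peaks per Mb in 20 bins of 5% of the chromosome length for 7A, 7B and 7D, with 1 line for each tissue. All 4 lines are high at both ends and low near the middle, and the first bin is lower on 7B (11.0 to 18.4 per Mb) than on 7A (17.4 to 27.9) and 7D (26.0 to 39.2).

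Across the 20 bins of equal share of the length, the profiles of 7A and 7D resembled each other more than either resembled 7B. Pearson's r between 7A and 7D ran from 0.972 in leaves to 0.984 in roots and buds. Between 7A and 7B it ran from 0.816 to 0.895, and between 7B and 7D from 0.795 to 0.849. The bins of a chromosome share a library and neighbours are not independent, so these values are descriptions. In bins of equal Mb counted from the far end the order turned in all 4 tissues. There r was 0.847 to 0.914 between 7A and 7B, 0.703 to 0.761 between 7A and 7D, and 0.423 to 0.517 between 7B and 7D. Those bins span only the length of 7D. They leave out the dense first ends of the longer 7A and 7B but keep that of 7D. They set the end of 7D against interior stretches, so they cannot decide how far the order depends on the binning.

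The shortfall of 7B was concentrated towards its first end. Against 7A and 7D pooled, the density of 7B was below 1 in all 4 tissues in each of the first 7 bins. In the first 5% of the length the ratio was 0.488 in roots (0.441 to 0.539), 0.513 in leaves, 0.556 in buds and 0.570 in apices. Over the first 20% it was 0.501 in roots, 0.572 in buds, 0.611 in apices and 0.619 in leaves. Over the last 20% it was nearer to 1: it was 0.870 in leaves (0.821 to 0.921) and 0.894 in apices (0.848 to 0.942), below 1 beyond counting error, and 0.956 in roots (0.907 to 1.01) and 0.966 in buds (0.918 to 1.02). Over the inner 60% it was 0.911 to 1.01. The last 5% was again sparser on 7B, with ratios from 0.617 in apices to 0.762 in roots. In 4 bins the ratio was above 1 in all 4 tissues. It was 1.06 to 1.68 at 40 to 45% of the length and 1.03 to 1.18 at 65 to 70%. At 75 to 80% it was 1.13 to 1.597, and at 80 to 85% 1.24 to 1.497. Only at 80 to 85% did every interval lie above 1. Others included 1, such as 0.876 to 1.28 in leaves at 40 to 45% and 0.865 to 1.22 in roots at 65 to 70%. Nor was 7B always denser than each homoeologue: at 65 to 70% it had 5.57 root peaks per Mb, against 5.98 on 7D.

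The 3 largest ratios between homoeologues in a single bin were root ratios of 7D to 7B, in the first 3 bins. At 5 to 10% of the length 7D had 593 root peaks and 7B 259, a density ratio of 2.69. At 0 to 5% the numbers were 1044 and 501 (2.45), and at 10 to 15% they were 468 and 226 (2.43).

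**Figure D2:**
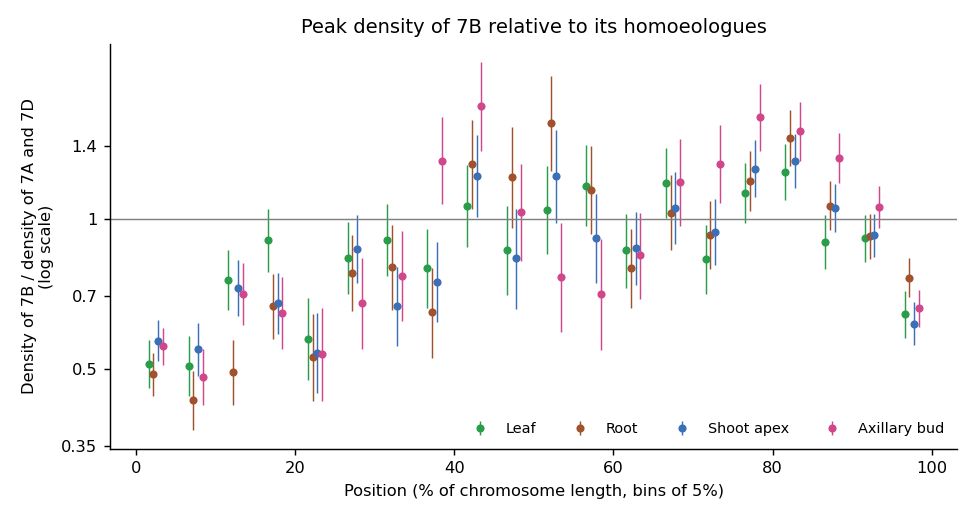
Density of peaks on 7B divided by that on 7A and 7D pooled, in 20 bins of 5% of the length, for each tissue. The ratio lies below 1 in the first 7 bins in all 4 tissues and above 1 in all 4 in the bins at 40 to 45%, 65 to 70%, 75 to 80% and 80 to 85%.

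The ends of 7A and 7D were close to evenly filled, unlike those of most chromosomes. Of the peaks in the outer 20% at either end, 50.1 to 51.2% on 7A and 50.4 to 52.8% on 7D lay at the first end. On 7D the first end held slightly more than the last, beyond counting error, in roots (51.4 to 54.3), apices (51.1 to 54.0) and buds (51.2 to 54.1). These 2 chromosomes ranked second and first of 21 in all 4 tissues, and no chromosome outside group 7 exceeded 48.1%. On 7B the first end held 41.9% of distal peaks in leaves, 36.3% in roots, 42.2% in apices and 38.5% in buds, which ranked from the 8th to the 14th highest of 21. Without the first 10% of each homoeologue, 7D over 7B came down to between 1.14 and 1.24, and 7A over 7B to between 0.991 and 1.07.

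At both ends of the 3 homoeologues the order of bud and leaf was the same. With counts scaled to list size, buds were the highest tissue in the first and the last bin of 7A, 7B and 7D, at 1.52 to 1.69 times the leaf value. Leaves were highest in 9 of 20 bins of 7A, 8 of 7B and 9 of 7D, all between 15 and 85% of the length, and buds were lowest in 12, 10 and 13 bins. The homoeologues differed in the other tissues: root was highest in 8 bins of 7D, 4 of 7A and 3 of 7B, and in the bin at 40 to 45% bud was highest on 7B, at 1.08 times the leaf value, against 0.678 on 7A and 0.683 on 7D. The bud to leaf ratio came down to 0.464 in the bin at 55 to 60% of 7B, where 189 leaf and 87 bud peaks were called. That bin had the largest ratio between tissues of all bins of group 7 (2.16), ahead of the bin at 35 to 40% of 7A, with 202 leaf and 108 bud peaks (1.86). The next was at 70 to 75% of 7A, where 277 root peaks stood against 160 bud peaks (1.77).

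Peaks of the 4 lists that shared at least 1 bp were merged into regions, and each region was classed by the tissues with a peak in it. Group 7 held 33851 of 221805 regions (15.3%), of which 11212 lay on 7A, 10553 on 7B and 12086 on 7D. Regions found in all 4 tissues were scarcer here than on any other chromosome: they made up 18.9% of regions on 7A, 17.7% on 7B and 18.04% on 7D, the 3 lowest of 21. Over the group the share was 18.2% (17.8 to 18.6), against 19.9% (19.8 to 20.1) on the other 18 chromosomes. A stricter rule, by which a tissue counted only where its peaks covered 50% of the region, gave 6.88% against 7.54%, and 7A and 7B were then the 8th and the 5th lowest of 21.

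Regions of a single tissue made up 45.1% on 7A, 47.4% on 7B and 47.1% on 7D, against 45.1% elsewhere, and the shares of 7B and 7D were the highest pair of the 21. Root alone accounted for 12.7% on 7A, 12.9% on 7B and 13.8% on 7D, against 11.7% on the other 18. Of all 21, 7D had the highest root share, while 7B ranked 5th and 7A 8th. Leaf alone accounted for 9.11% on 7A, the lowest of 21, for 10.03% on 7B and for 10.1% on 7D, against 10.2%. Bud alone reached 15.4% on 7B, with 14.5% on 7A and 13.97% on 7D, against 14.2%. Shoot apex alone was nearly level, at 8.89%, 9.12% and 9.22%, against 8.97%. Regions of root, shoot apex and bud together made up 3.94% on 7A, 3.89% on 7B and 4.34% on 7D, against 3.46%. No chromosome outside group 7 exceeded 3.78% for this set. Regions of root and bud made up 2.02%, 1.84% and 1.82%, against 1.60%. Those of leaf, shoot apex and bud were lower than elsewhere, at 4.86%, 5.03% and 4.28%, against 5.22%. Between any pair of tissues, the share of peaks that overlapped the other list was below that of the other 18 chromosomes in 18 of 18 comparisons, by 0.453 to 3.53 percentage points. These comparisons reuse the same 4 lists and are not independent. The smallest difference, of root and shoot apex on 7A, was within counting error, at 62.1% (61.2 to 62.9) against 62.5% (62.3 to 62.7).

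**Figure D3:**
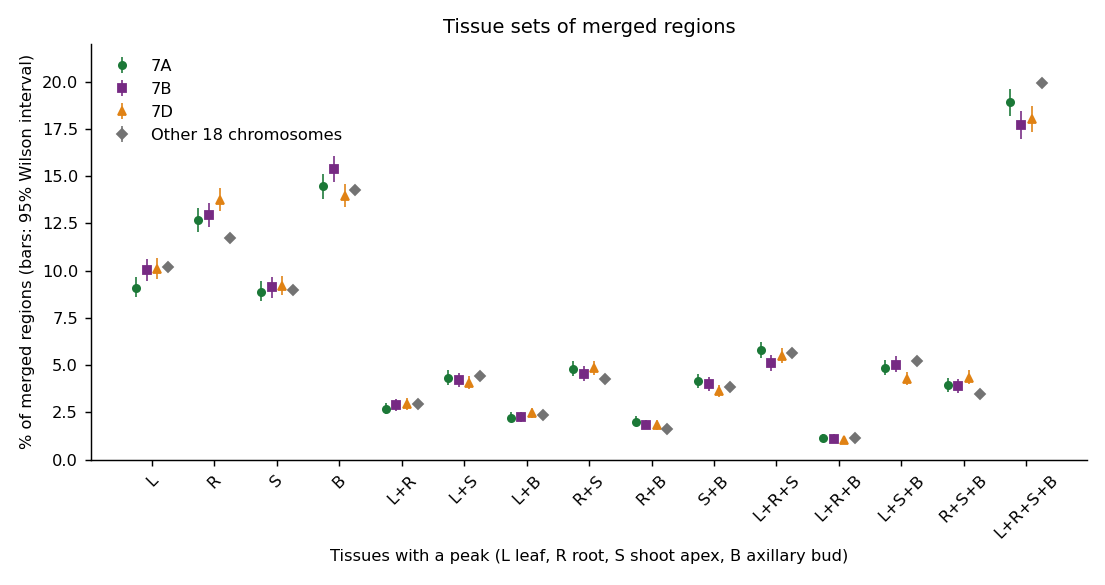
Percent of merged regions on 7A, 7B, 7D and the other 18 chromosomes in each of the 15 tissue sets, from a single tissue to all 4, with 95% Wilson intervals of counting error. Group 7 is lowest for regions of all 4 tissues (17.7 to 18.9%, against 19.9%) and highest for root alone (12.7 to 13.8%, against 11.7%).

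By position, the share of regions of all 4 tissues was lower at the last end of all 3 homoeologues, and also in the interior of 7B and 7D. In the last 20% of the length it was 17.9% on 7A, 17.7% on 7B and 18.3% on 7D, against 21.01% on the other 18. In the first 20% it was 17.98%, 17.8% and 17.8%, against 18.1%. In the inner 60% 7A had 20.8%, above the 20.1% of the other 18, while 7B (17.7%) and 7D (17.97%) were below it. Among regions of a single tissue, those of bud alone were the most distal, with 80.4% of them in the outer 20% at either end on 7A, 71.1% on 7B and 79.1% on 7D. Regions of root alone followed with 72.1%, 62.5% and 69.6%, and those of leaf alone were the least distal of the 4 single-tissue sets, with 50.05%, 46.4% and 55.6%. Of the sets of several tissues, regions of root and bud together were more distal than bud alone, with 82.7% on 7A, 78.4% on 7B and 84.1% on 7D. So were those of shoot apex and bud (81.6%, 73.2% and 79.2%) and of root, shoot apex and bud (82.1%, 75.9% and 84.0%). The other 18 chromosomes also had root and bud together (75.6%) above bud alone (71.8%).

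The ends of 7B differed from those of its homoeologues also in the regions of root alone. In the first 5% of the length these made up 9.98% of regions on 7B (8.26 to 12.01), against 14.5% on 7A (12.8 to 16.3) and 13.5% on 7D (11.98 to 15.1). In the last 5% they made up 19.8% on 7B (17.6 to 22.2), against 12.4% on 7A (10.8 to 14.2) and 15.1% on 7D (13.5 to 16.96). The intervals of 7B did not overlap those of 7A at either end, but overlapped that of 7D in the first 5%. The share in the same 5% of the other 18 chromosomes together was not computed. In the first 20% of the length root alone made up 10.5% on 7B, 14.4% on 7A and 14.2% on 7D, against 13.3% on the other 18. In the last 20% it made up 15.2%, 13.4% and 14.2%, against 11.9%.

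Peaks of group 7 were narrow for their subgenomes, and those of 7A and 7B also among all 21 chromosomes. The mean of 7D ranked 13th widest of 21 in leaves and roots, 14th in buds and 19th in apices. Mean widths on 7A, 7B and 7D were 659, 648 and 683 bp in leaves, 619, 616 and 660 bp in roots, 720, 710 and 738 bp in apices, and 741, 733 and 766 bp in buds. Chromosomes 7B and 7A had the smallest and the next smallest mean of all 21 in every tissue, and 7D had the smallest of the 7 D chromosomes in every tissue. Each group 7 chromosome was thus the narrowest of its subgenome in 12 of 12 comparisons. In the outer 20% at either end alone this held in 11 of 12, and in the inner 60% in 4 of 12. With each list reduced to its widest peaks, as many as the root list holds, it held in 8 of 12.

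Wide peaks were accordingly fewer. Group 7 peaks 2 kb or wider were 3.27% of leaf, 2.21% of root, 4.44% of shoot apex and 4.56% of bud peaks, against 3.96%, 3.15%, 5.31% and 5.22% on the other 18 chromosomes. On 7D alone they were 3.62%, 2.68%, 4.91% and 5.01%, and only the root interval (2.32 to 3.10) lay below the other 18. The median width was 475 bp in the leaf list and in the root list, 500 bp for the shoot apex and 525 bp for the bud, each 25 bp below that of the other 18 chromosomes. Most widths in the lists were multiples of 25 bp. On 7D the medians in root (500 bp), shoot apex (525 bp) and bud (550 bp) equalled those of the other 18. The widest regions of all 4 tissues were 12577 bp on 7B (7B:712075221-712087797), 12528 bp on 7D (7D:630526437-630538964) and 10088 bp on 7A (7A:404466721-404476808). The regions on 7B and 7D lay close to the end of the long arm, at 94.9% and 98.7% of the length, and the one on 7A at 54.9%.

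**Figure D4:**
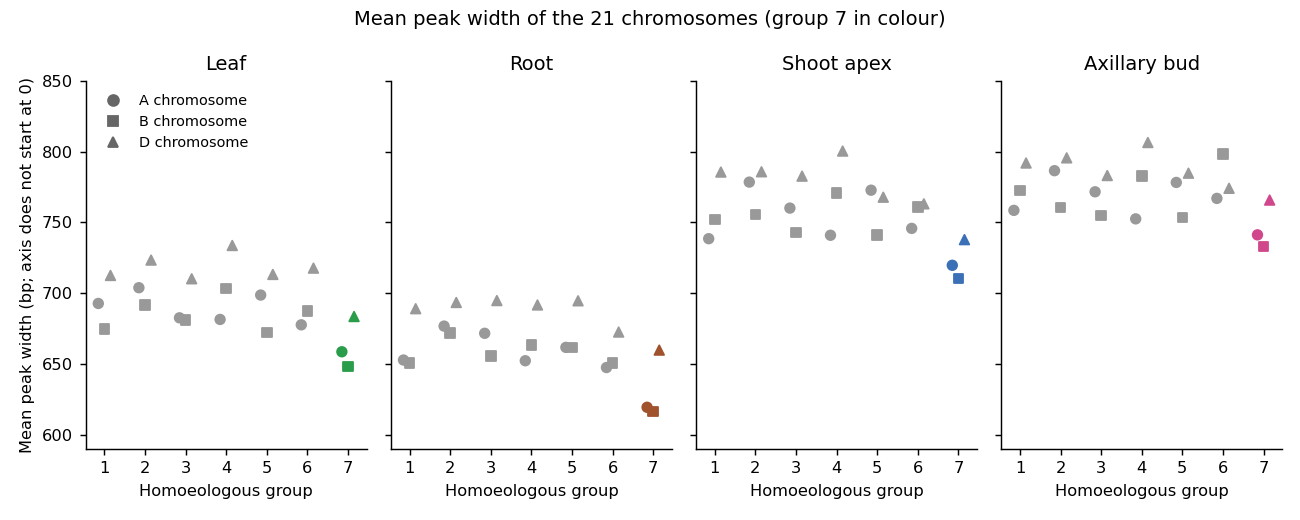
Mean peak width in bp of each of the 21 chromosomes in each tissue, with 7A, 7B and 7D marked. The marked chromosomes lie at the bottom of their subgenome in every tissue, with 7B lowest of all 21 (616 bp in roots to 733 bp in buds).

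Among regions of a single tissue, the widest of leaf alone was 5025 bp at 7D:1464320-1469344, and 7A (3375 bp) and 7B (3350 bp) had shorter ones. The widest of shoot apex alone was 4850 bp at 7A:432973091-432977940, followed by 3550 bp on 7D and 3075 bp on 7B. For root alone it was 3925 bp at 7A:669726032-669729956, with 2775 bp on 7D and 2700 bp on 7B. Regions of bud alone stayed shortest, with 2484 bp at 7D:580170687-580173170, 2300 bp on 7B and 2275 bp on 7A. Without sequence or annotation on the build of the peaks, what lies at these positions was not analysed here.

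Stretches of at least 1 Mb without a peak in any tissue numbered 38 on 7A, 34 on 7B and 31 on 7D. They covered 47.3 Mb of 7A (6.42% of its length), 45.02 Mb of 7B (6.00%) and 39.9 Mb of 7D (6.24%). The share of 7A was the lowest of the 7 A chromosomes, whose others ran from 8.17% to 13.3%. The depth behind the lists is unknown, so a stretch without a called peak is not shown to be closed.

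Most of these stretches lay in the interior: 25 on 7A, 23 on 7B and 23 on 7D had their midpoint at 30 to 70% of the length. In the outer 20% at either end there were 5, 6 and 2. On 7D none began before 120.3 Mb, whereas on 7B the first began at 30.4 Mb and on 7A at 71.7 Mb. The longest was 2090262 bp on 7B (7B:454824812-456915073), followed on that chromosome by 7B:297413465-299245919 (1832455 bp) and 7B:308048213-309857923 (1809711 bp). On 7A the longest were 7A:487716761-489706599 (1989839 bp), 7A:361000250-362743383 (1743134 bp) and 7A:370143574-371774181 (1630608 bp). On 7D they were 7D:283457713-285119972 (1662260 bp), 7D:291561079-293209971 (1648893 bp) and 7D:224486639-226115524 (1628886 bp).

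Taken tissue by tissue, the stretches of at least 1 Mb without a peak covered the most in buds on each homoeologue: 22.2% of 7A, 20.1% of 7B and 19.4% of 7D. In leaves they covered 16.1%, 14.7% and 14.7%. Some of the longest held peaks of other tissues. On 7B, 7B:402816188-407608216 (4.79 Mb) had neither a leaf nor a bud peak but had 11 root and 4 shoot apex peaks. On 7D the longest stretch without a root peak, 7D:276939704-281872990 (4.93 Mb), held 7 leaf, 6 shoot apex and 2 bud peaks. On 7A the longest without a bud peak, 7A:425084487-428514528 (3.43 Mb), held 11 leaf, 8 root and 7 shoot apex peaks.

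Blocks of a single tissue were looked for first as runs of at least 5 neighbouring regions that all had a peak in the same single tissue. Group 7 had 56 such runs of root, 22 of bud, 16 of leaf and 8 of shoot apex. Root runs held 1.03% of its regions, against 0.772% over all 21 chromosomes. The shares were 0.363% against 0.312% for bud, 0.269% against 0.26% for leaf and 0.118% against 0.0487% for shoot apex. Leaf runs on group 7 were thus near the level of the whole genome, and the shoot apex share rested on 8 runs of 5 regions each.

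Root runs were unevenly split over the homoeologues, with 26 on 7D, 18 on 7A and 12 on 7B. At 2.15 per 1000 regions, 7D had the most root runs per region of all 21 chromosomes. Of the 56 root runs 51 lay in the outer 20% at either end, as did 21 of 22 bud runs, but of 16 leaf runs 6 did. The regions that make up such runs were already unevenly placed. On group 7 these zones held 68.2% of regions of root alone, 76.9% of bud alone and 50.9% of leaf alone. The positions of runs on the other 18 chromosomes were not compared. The longest root run joined 16 regions at 7B:673971275-674146575. The longest bud run joined 9 regions at 7A:727585806-727707225. Leaf runs reached 7 regions at 4 places, 7B:255042464-255071744, 7B:296322668-296347838, 7D:25895760-26004117 and 7D:619175211-619198890.

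**Figure D5:**
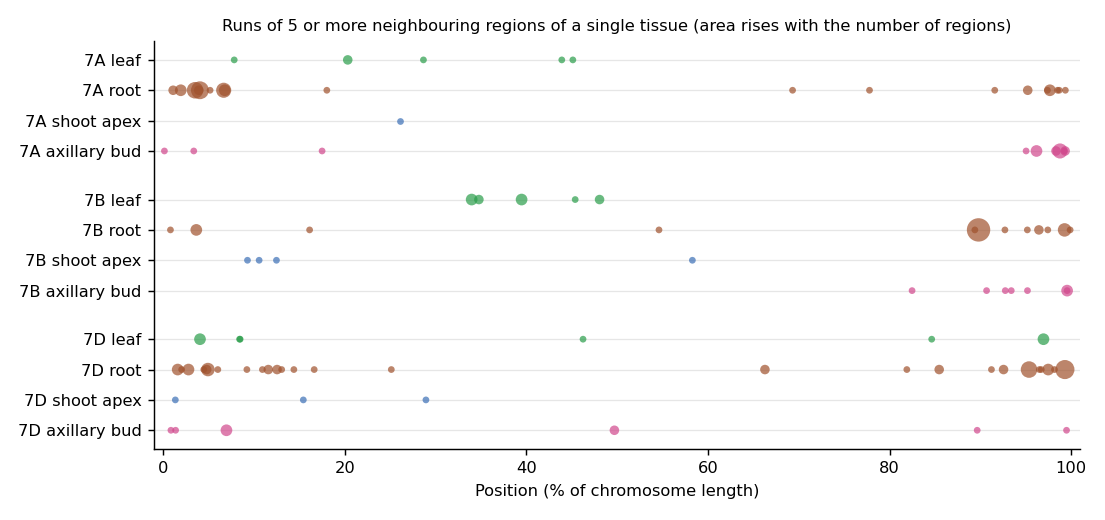
Positions, as percent of the chromosome length, of all runs of at least 5 neighbouring regions of the same single tissue on 7A, 7B and 7D. Root and bud runs sit near the ends (51 of 56 and 21 of 22 in the outer 20% at either end), while leaf runs are mostly interior. The same zones held 68.2% of regions of root alone, 76.9% of bud alone and 50.9% of leaf alone on group 7.

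Blocks were looked for secondly as windows of 1 Mb with at least 20 peaks of a tissue, in which that tissue, scaled to list size, was at least 2 times each other tissue. For root 2 of 213 windows on group 7 passed, against 1.16% of windows over all 21 chromosomes. One was 7B:674000001-675000000, with 25 root, 3 leaf, 5 shoot apex and 7 bud peaks, which overlaps the root run of 16 regions. The other was 7D:582000001-583000000, with 23 root, 10 leaf, 12 shoot apex and 11 bud peaks.

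For bud 2 of 231 windows passed, against 0.644%. Window 7B:707000001-708000000 had 22 bud, 1 leaf, 8 root and 8 shoot apex peaks, and window 7A:734000001-735000000 had 36 bud peaks and 15 of each other tissue. For leaf 0 of 148 windows passed, against 0.564%, and for shoot apex 0 of 229, against 0%. Each of these shares rests on at most 2 windows. At 1.5 times, bud passed in 30 of 231 windows (13.0%), against 8.24% over all 21 chromosomes, and 17 of these lay on 7A, 9 on 7B and 4 on 7D. At the same fold root passed in 17 windows (7.98%, against 6.44%), leaf in 2 (1.35%, against 2.18%) and shoot apex in 2 (0.873%, against 0.659%).

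The most crowded window of 7D was the same in all 4 tissues, 7D:4000001-5000000, with 81 leaf, 75 root, 114 shoot apex and 105 bud peaks. On 7A the densest window differed by tissue: 7A:706000001-707000000 in leaves (48 peaks), 7A:26000001-27000000 in roots (56), 7A:4000001-5000000 in apices (58) and 7A:1-1000000 in buds (67). On 7B it lay at 7B:721000001-722000000 in leaves (52), 7B:735000001-736000000 in roots (50), 7B:667000001-668000000 in apices (57) and 7B:1-1000000 in buds (68). The bud list thus peaked in the very first megabase of both 7A and 7B, but only narrowly. The windows densest in leaves, towards the other end, held 64 bud peaks on 7A and 66 on 7B.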

How the data were processed

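ATAC-seq libraries of 4 tissues (2 each) were summarised by the authors as 1 peak list per tissue, which the labels of both libraries cite. The deposited lists hold peak coordinates alone, with no score, p-value or read count. Trimmomatic 0.36, Bowtie2, MACS2 and bedtools were used, per the submitters' processing notes; not given in the sources used here are the genome build, the peak threshold and how replicates were combined.

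Starts were read as 0-based and are printed counted from 1. Densities, bins, merged regions, gaps, runs and windows were computed with Python 3.11.15, numpy 2.4.6, pandas 2.3.3 and scipy 1.17.1, plotted with matplotlib 3.10.9, and tested on simulated data. Shares carry Wilson intervals and density ratios intervals from the exact binomial interval of the pair's share, at 95%. No test between tissues was possible. Each group 7 chromosome was compared with the other 6 of its subgenome by rank and by Dixon's gap over range, as a description.

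Regions were named by a rule: on each homoeologue the widest region of all 4 tissues and of each tissue alone, the densest 1 Mb window per tissue and the 3 longest gaps; over the group the longest run and every window of 1 tissue, and the 3 bins with the largest ratios. The tissue-specific gaps were chosen after their values were seen. The members, lists and rules were chosen with earlier results of these data known. The gene table on hand is of another assembly, so no peak was assigned to a gene and the planned look-up of SPL, FT, waxy and TB1 genes was not run. Alternatives were other overlap rules, peaks of at least 507 bp (the median of all lists), lists cut to 119387 peaks, and other bins, zones, folds and run lengths; 4 were added after seeing the data (peaks per gene, and widths in cut lists, in the inner 60% and in the outer 20%).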

Additional observations from a re-analysis of the deposited data

Results flagged for a closer look

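In each subgenome a group 7 chromosome was compared with the other 6 on 26 measures. It was the highest or lowest of the 7 in 31 of 78 checks, where even ranks would give 22.3, and several of the measures are related to each other. In 3 checks its gap to the nearest chromosome, divided by the range of the 7, was above Dixon's 95% critical value for 7 values. Chance flags about 1 in 20 such sets of 7, whichever chromosome stands apart, and therefore a given chromosome less often. All 3 were on 7B. Its mean root peak width of 616 bp stood below the other B chromosomes, its share of regions of all 4 tissues, 17.7%, was likewise apart on the low side, and its 0.379 runs of shoot apex alone per 1000 regions, which rest on 4 runs, were apart on the high side. What lies behind these values was not tested.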

How the results depend on the processing

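No paired analysis was possible because each tissue has 1 list with no columns for its libraries, and for the same reason leaving out each replicate was not run. Of the values that answer a comparison, 55 stayed within their counting interval (or 1.5 times a count), 89 left it and 2 crossed 1. Those 2 were bud ratios of 0.998 and 0.991, nearly level with 1, and no interval was computed for them. Some settings redefine the value, such as the outer 10%, gaps of at least 2 Mb, runs of at least 4 regions or 1.5 times. For these a move was largely built in, and only density ratios could cross 1. The tally is therefore no measure of robustness. What lay behind the other moves was not tested. In the order leaf, root, shoot apex, bud, ratios per protein-coding gene were 1.02, 1.04, 1.01 and 0.998 (7D over 7A, about level in buds), 1.05, 1.09, 1.05 and 1.01 (7D over 7B), and 1.02, 1.04, 1.04 and 1.02 (7A over 7B). Without the first 10% of the length, 7D over 7A was 1.18 in leaves, 1.16 in apices and 1.15 in buds. On the same basis 7D over 7B was 1.22, 1.24, 1.24 and 1.14, and 7A over 7B was 1.04, 1.02, 1.07 and 0.991, about level in buds. By bases covered, 7D over 7A was 1.28 in leaves and 1.34 in roots, and 7D over 7B was 1.44, 1.52, 1.43 and 1.38. With peaks of at least 507 bp, 7D over 7A was 1.34 in roots, and 7D over 7B was 1.55 in roots and 1.39 in buds. Distal shares were 36.2%, 42.02%, 39.7% and 49.6% in the outer 10%, and with peaks of at least 507 bp 67.5% in roots and 72.0% in buds.

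With 50 bins the ratio of 7B to its homoeologues was 0.585, 0.608, 0.674 and 0.664 in the first bin, and 0.506 in leaves, 0.551 in apices and 0.556 in buds in the last. In bins of equal Mb counted from the far end, the bin farthest from it gave 0.4, 0.297, 0.322 and 0.194; it lies inside the longer 7A and 7B and at the very end of 7D. Regions of all 4 tissues made up 20.99% when peaks within 500 bp of each other were joined, 6.88% with 50% cover and 15.4% with peaks of at least 507 bp. Regions of a single tissue made up 42.2%, 55.2% and 47.4% under these rules and 47.4% in lists cut to the shortest. With such joining, leaf alone was 8.88%, shoot apex alone 7.54% and bud alone 12.7%. With 50% cover the shares of leaf, root, shoot apex and bud alone were 11.3%, 15.1%, 11.1% and 17.7%, and with peaks of at least 507 bp 8.47%, 13.8%, 9.92% and 15.2%. In cut lists root alone was 15.4% and shoot apex alone 7.41%.

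Peaks of at least 2 kb made up 2.72%, 1.38%, 3.30% and 2.65% in the inner 60%, 3.65%, 2.66%, 5.10% and 5.34% in the outer 20% at either end, and 5.01% in apices in the cut list. There was 1 gap of at least 2 Mb, and there were 312 of at least 1 Mb with peaks of at least 507 bp. Runs of at least 4 regions numbered 34, 103, 18 and 51, and the cut lists left 4 of shoot apex. At 1.5 times, windows numbered 2, 17, 2 and 30; windows shifted by 500 kb or cut lists gave 1 of shoot apex each. The unknown depth and build limit all levels: a longer or wider list may reflect deeper reads, and how reads of AiKang58 aligned to the assembly at each end was not tested.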

Other observations

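The end of the long arm of 4A, which carries the piece once at the end of 7B, was looked at after the values of 7B were seen. Its last 5% of length held 478 leaf peaks (12.8 per Mb), 616 root peaks (16.5 per Mb), 463 shoot apex peaks (12.4 per Mb) and 602 bud peaks (16.2 per Mb). Scaled to list size, the root list was 1.33 times and the bud list 1.27 times the leaf list there. In the first and last 5% of 7A, 7B and 7D root was 1.25 to 1.58 times leaf, so the root value of 4A lies within the range of these ends. Bud was 1.52 to 1.69 times leaf at the same ends, so the bud value of 4A lies below their range. Regions of root alone made up 20.6% of the regions in this stretch (18.2 to 23.1), against 9.26% in the first 5% of 4A (7.62 to 11.2). For comparison, the share was 9.98% in the first and 19.8% in the last 5% of 7B. It was 14.5% in the first and 12.4% in the last 5% of 7A, and 13.5% and 15.1% on 7D. Whether the piece of 7B origin fills these 5% was not analysed here.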
